A study of Mus musculus with 8 samples.

Results

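Of the 21418 promoters of protein-coding genes on chromosomes 1 to 19, 528 held no peak of any of 4 histone marks in either of 2 tumor lines. A promoter was an interval of 1500 bases around the transcription start site (TSS) used by most transcripts of its gene, with 1 kb before the TSS and 0.5 kb after it, and a peak counted when its midpoint lay inside. The absence of peaks chose these promoters, so it is given as a description and without a test.

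The tumors were subcutaneous isografts of Lewis lung carcinoma, a mouse lung tumor cell line, in C57BL/6J female mice. The mice were 6 to 8 weeks old at purchase. LLC-NR is the line that responds to VEGF-Trap, a soluble inhibitor of vascular endothelial growth factor. LLC-R was derived from LLC by rounds of growth in mice under continuous VEGF-Trap, so it stands for a single selection history. Chromatin of each tumor type was cut with micrococcal nuclease and precipitated with antibodies to H3K4me3, H3K9ac, H3K27me3 or H3K36me3, which gave 1 library per line and mark, 8 in all, and no replicate. The tissue also holds host cells, which the libraries do not separate from tumor cells.

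Nucleosomes cover most of the genome, and a peak of 147 bp marks the place of one. A read from a repeated sequence matches several places equally well, so a procedure that keeps only reads with a single match leaves such sequence blank whatever the chromatin there holds. In the mouse genome the longest blank intervals of this kind are young segmental duplications, which often carry families of tandem genes such as pheromone receptors and defence peptides.

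The sequences of these promoters show the property that they shared most widely. The stretches that follow are the 80 bases upstream of the TSS in mm9, written 5′ to 3′ on the strand of the gene. Capitals mark bases that lie in at least 1 word of 50 bases found once in the genome, and lower case marks bases that lie in none. One gene was taken from each of several duplicated groups.
Cdkn2d, chr9:21095654-21095733, minus strand: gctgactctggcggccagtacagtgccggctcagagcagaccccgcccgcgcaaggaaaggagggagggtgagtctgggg
Tff1, chr17:31301999-31302078, minus strand: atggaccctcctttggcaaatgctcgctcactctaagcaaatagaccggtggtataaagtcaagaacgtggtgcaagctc
Hist1h4m, chr13:21903535-21903614, plus strand: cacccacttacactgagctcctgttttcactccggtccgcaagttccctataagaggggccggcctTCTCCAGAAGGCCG
Ccl21a, chr4:42787526-42787605, minus strand: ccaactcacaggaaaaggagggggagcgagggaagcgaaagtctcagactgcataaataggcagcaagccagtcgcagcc
Mup15, chr4:61100776-61100855, minus strand: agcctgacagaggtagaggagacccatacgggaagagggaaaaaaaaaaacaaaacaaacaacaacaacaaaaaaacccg
Amy2a5, chr3:113061756-113061835, minus strand: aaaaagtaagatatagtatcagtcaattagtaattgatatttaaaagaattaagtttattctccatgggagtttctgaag
Vmn1r95, chr7:20778979-20779058, plus strand: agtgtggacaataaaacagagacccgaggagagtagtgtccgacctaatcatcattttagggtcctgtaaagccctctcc
Vmn2r31, chr7:7352339-7352418, minus strand: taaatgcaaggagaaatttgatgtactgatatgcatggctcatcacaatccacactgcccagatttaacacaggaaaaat
Gm14440, chr2:175100546-175100625, plus strand: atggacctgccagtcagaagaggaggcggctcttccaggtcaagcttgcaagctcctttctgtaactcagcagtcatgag
Gm2888, chr14:3029922-3030001, plus strand: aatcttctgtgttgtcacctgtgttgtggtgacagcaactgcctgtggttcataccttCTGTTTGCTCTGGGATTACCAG
Gm17386, chr1:96048694-96048773, plus strand: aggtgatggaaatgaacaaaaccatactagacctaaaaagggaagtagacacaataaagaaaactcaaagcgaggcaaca

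None of these 80-base stretches was found once. Those of Cdkn2d, Tff1, Hist1h4m, Mup15 and Vmn1r95 each had 2 identical places in the genome, that of Vmn2r31 had 4, those of Amy2a5 and Gm14440 had 5, that of Ccl21a had 8 and that of Gm2888 had 9. That of Gm17386 had 1773. In Hist1h4m and Gm2888 the 14 and 22 capital bases next to the TSS belong to words that run past it into sequence that differs between the copies.

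The 528 promoters were 2.47% of all promoters (exact Clopper-Pearson 95% interval, 2.26% to 2.68%, counting error only). A promoter held a median of 41 peaks over the 8 libraries, and the fullest held 59. The libraries listed 5660458 to 9101721 peaks each, and in single libraries 682 to 1201 promoters were empty. In LLC-NR these were 4.22% of all promoters for H3K4me3, 3.5% for H3K9ac, 4.01% for H3K27me3 and 5.61% for H3K36me3. In LLC-R they were 4.26%, 3.79%, 3.18% and 3.32% for the same marks. The empty promoters of each library therefore included 154 to 673 that held a peak in another. In LLC-NR the 4 libraries together left 620 promoters (2.89%) empty, and in LLC-R they left 578 (2.7%). These sets share the 528, with 92 promoters empty in LLC-NR alone and 50 in LLC-R alone.

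Next to the threshold, 91 promoters held exactly 1 peak, 59 held 2 and 40 held 3. The share of 50-base words found once had a median of 0% in the 528 promoters and 15.9% in those with 1 peak. It was 20.1% in those with 2 and 30.2% in those with 3. Those with 4 peaks (n = 48) had 24.2% and those with 5 (n = 36) had 27.9%. The fullest unique sequence with a single peak belonged to the olfactory receptor gene Olfr54, with 73.5% of words found once and 1 H3K4me3 peak in LLC-NR. It was followed by Vmn1r79 with 44.1% and Gm5930 with 43.3%. Promoters just past the threshold thus had little unique sequence too, though more than those without a peak.

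The promoters empty in 1 line only had little unique sequence as well, with a median of 18.7% (n = 92) for LLC-NR and 18.0% (n = 50) for LLC-R, and held a median of 1 peak and at most 5 in the other line. After Olfr54, which was empty in LLC-R, the 9 with the largest unique share were all empty in LLC-NR. Gm11756 (55.8% unique) held 1 peak each of H3K4me3, H3K9ac and H3K36me3 in LLC-R. Prb1, which encodes a proline-rich salivary protein (55.7%), held 1 of H3K9ac and 1 of H3K36me3, and Cyp2b9, a cytochrome P450 gene (53.4%), held 2 of H3K36me3. The LLC-R libraries of H3K36me3 and H3K27me3 listed more peaks than those of LLC-NR (8747519 against 6432447 and 9101721 against 7245090). Those of H3K9ac and H3K4me3 listed fewer (7853593 against 8547101 and 5660458 against 5678337). The part of these totals in the difference was not tested. With 1 library per line and mark, no difference between the lines was tested.

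**Figure D1:**
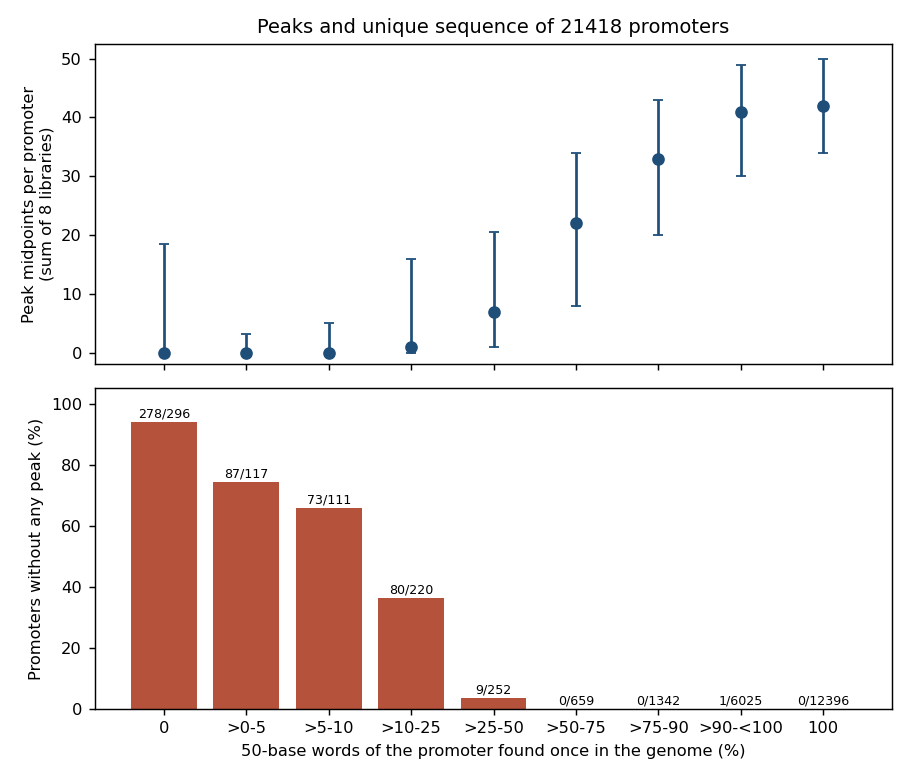
Upper panel, median number of peak midpoints per promoter summed over 8 libraries, with bars from the 5th to the 95th percentile, for promoters grouped by the share of their 50-base words that are found once in the genome. Lower panel, share of each group without any peak, with the counts above the bars, which falls from 278 of 296 promoters at 0% to 0 of 12396 at 100%.

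Almost all promoters without a peak had little or no sequence found once in the genome. A word of 50 bases counted as unique when no other place in mm9, on either strand, had the same bases. In 278 of the 528 promoters (52.7%) no word was unique, in 438 (83.0%) fewer than 10% were, and the upper quartile was 6.89%. In the other 20890 promoters the median was 100% and the lower quartile 97.04%.

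Read the other way, 278 of the 296 promoters without a unique word were empty, as were 87 of 117 with up to 5%, 73 of 111 with 5% to 10%, 80 of 220 with 10% to 25% and 9 of 252 with 25% to 50%. Above 50%, 1 of 20422 was empty. Of the 18 promoters without a unique word that did hold peaks, 17 had unique words once unplaced sequences were left out of the count. Over placed chromosomes alone these 17 had a median of 100% unique words, with 59.8% for the lowest, Gm6086, and a median of 36 peaks.

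The reads had been allowed 2 mismatches, so words were also called repeated when another place differed at no more than 2 of the 50 bases. By this measure, 502 of the 528 promoters had no unique word among those sampled, and 527 had fewer than 10%. None of the 12119 promoters in which every sampled word remained unique had fewer than 22 peaks, and their median was 42.

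Most of these promoters had a nearly identical copy elsewhere. An alignment of at least 1200 bases to another place in the genome was found for 520 of the 528. The closest copy had a median identity of 99.93%, 470 had a copy at 99% or more, and 231 (43.8%) had a copy identical over all 1500 bases. The lowest identity was 94.6%, in the promoter of 4930425F17Rik. The closest copy was itself poor in peaks. Of 502 copies on placed chromosomes, 437 held no peak in any library, 48 held 1 or 2 and the fullest held 8. All 220 identical copies among them were empty, which was largely fixed in advance, since hardly any read in such a copy has a single match. Of the 528 promoters, 454 lay in groups linked by such alignments, so a closest copy could itself be a promoter chosen as empty. These counts are therefore a description of the copies and no separate evidence.

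For 482 promoters the closest copy lay on the same chromosome, at a median distance of 443 kb (quartiles 137 kb and 1223 kb). It lay on another chromosome for 20 and in unplaced sequence for 18. It ran in the same direction as the promoter in 362 cases and in the opposite direction in 158. A word of a promoter without a peak had a median of 6 places in the genome (quartiles of the promoters' medians, 3 and 10). In 82 promoters the median was 2 places, in 321 it was from above 2 to 10, in 108 from above 10 to below 100 and in 16 it was 100 or more.

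**Figure D2:**
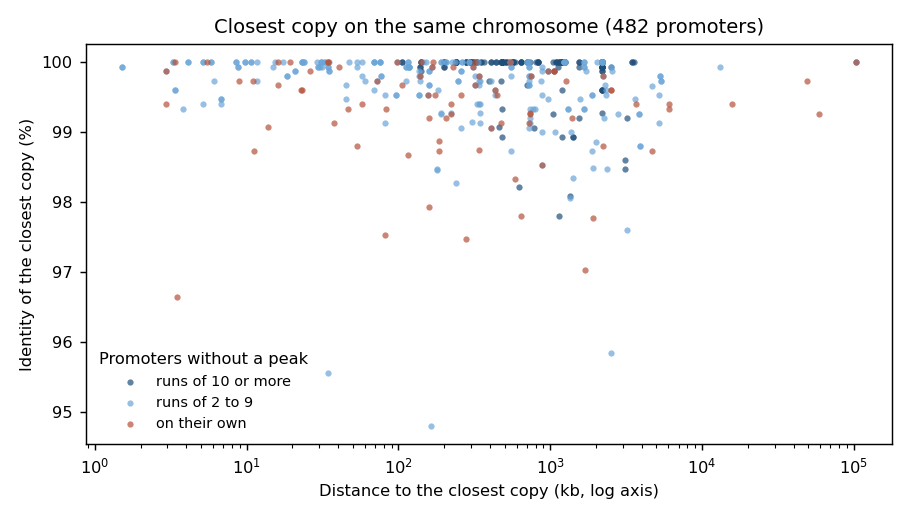
Identity of the closest other copy of 482 promoters without a peak, in percent of aligned bases, against its distance in kb on the same chromosome (log axis), with colours for the number of neighbouring promoters without a peak. Most points lie at or above 99%, and the quartiles of the distances are 137 kb and 1223 kb.

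The 16 promoters with 100 or more places per word stood apart, since their copies were scattered over the genome. By alignment, 9 promoters on 8 chromosomes formed 1 group, which also took in 4930512M02Rik, with a median of 32 places per word. Apart from Ces5a, which encodes a carboxylesterase and had a median of 1546 places per word, the group held predicted or RIKEN genes, with 1963 places for Gm17386 and 2988 for Gm17385. Zfp781, a zinc finger gene on chromosome 10, had 2206. The promoter of Gm10925 on chromosome 1, with a median of 2 places per word, matched the mitochondrial genome at bases 6790 to 8289 with 100% identity.

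Promoters without a peak stood side by side. In the order of start sites along the chromosomes, 429 of them (81.3%) were next to another one, in 84 runs of at least 2, and 99 stood alone. The 10 runs of 10 or more held 178. Chromosome 14 held 139 (14.6% of its promoters) and chromosome 7 held 116 (5.60%), against 2.47% of all promoters, and with chromosomes 4 and 2 they made up 361 of the 528 (68.4%). Chromosomes 15, 16 and 19 held none, and chromosomes 1 and 18 held 2 each.

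**Figure D3:**
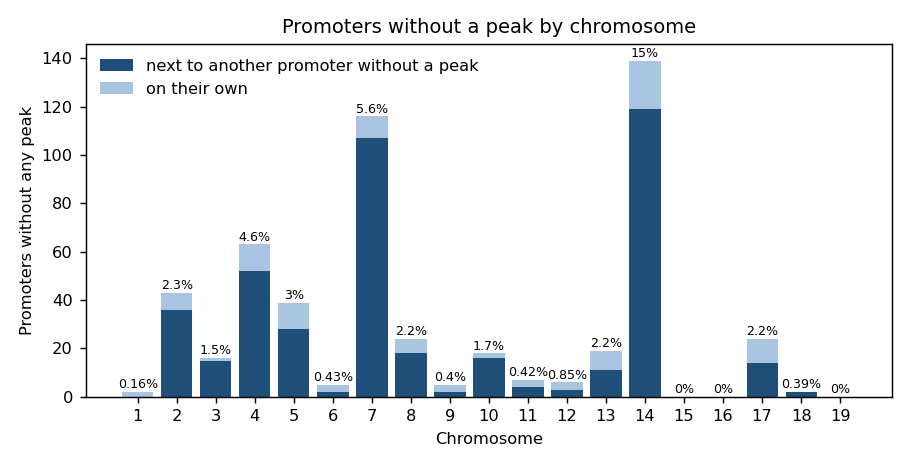
Number of promoters without a peak on each chromosome, split into those next to another such promoter (dark) and those on their own (light), with the percent of the chromosome's promoters above each bar. Chromosomes 14 and 7 hold 139 and 116, and chromosomes 15, 16 and 19 hold none.

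The longest run had 34 promoters in 1293 kb of chromosome 7, from Vmn1r125 to Gm4201, in an array of vomeronasal type 1 receptor genes. On chromosome 2, 27 promoters from Gm14391 to Gm14295 spanned 1551 kb, and 25 of them had an identical copy. On chromosome 4, 23 promoters from Gm10931 to Ccl21a spanned 571 kb, and all 23 had one. Chromosome 14 held runs of 18 (Gm1973 to Gm8108), 17 (Gm3476 to Gm10408), 16 (Gm10410 to Gm3408) and 10 (Cphx to Gm10391). The others of at least 10 were Gm16442 to Vmn1r103 with 13 and Gm5726 to Gm10668 with 10 on chromosome 7, and Gm13298 to 1700045I11Rik with 10 on chromosome 4. The median unique share was 0% in each of these runs.

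When promoters within 1 Mb of each other were joined, 7 clusters of at least 15 held 306 of the 528. The largest ran from 3.03 to 8.48 Mb of chromosome 14, where 94 of 118 promoters were empty and the other 24 had a median of 1.5 peaks. From 20.7 to 24.3 Mb of chromosome 7, 75 of 89 were empty, and from 41.8 to 42.8 Mb of chromosome 4, 34 of 36. The promoters with peaks in these intervals were also duplicated, with median unique shares of 19.7%, 23.3% and 10.4%. The cluster from 7.35 to 12.1 Mb of chromosome 7 ran from Vmn2r31 to Zscan4-ps2 and joined vomeronasal type 2 receptor genes with Zscan4 genes. There, by contrast, the 21 promoters with peaks had a median of 22 peaks and 85.4% unique words beside 22 empty ones.

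By their alignments the 528 promoters fell into 163 groups, of which 89 held at least 2 and 30 held at least 5. The largest had 48 promoters, all in the first cluster of chromosome 14, with Gm2888 the first along the chromosome. It was followed by 3 groups of 18, a second one on chromosome 14 and on chromosome 7 one of Vmn1r and one of Vmn2r genes. A group of 13 and a group of 10 on chromosome 2 held most of the predicted genes from Gm14391 to Gm14419, with a median of 11 and 10.5 places per word. Another group of the same interval had 5, Gm2004 the first, with a median of 17 places.

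Most of the genes were known by a provisional name. Predicted and RIKEN names made up 384 of the 528 (72.7%) but 16.2% of all promoters. For 190 of these 384, the protein resembled that of a named gene at 40% identity or more over at least 50% of its length. The closest named relative was a vomeronasal receptor for 30, Etohi1, a zinc finger gene, for 25, Pramef6 or Pramef8 for 21 and another Zfp gene for 14. Smaller sets were closest to Mark2, a kinase gene (10), Rpl23a, a ribosomal protein gene (9), Refbp2 (9), Speer2 or Speer4a (8), the chemokines Ccl19, Ccl21a, Ccl21b or Ccl27b (7), Cwc22, a splicing factor gene (7), and Ifnz, an interferon (6).

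The largest named families among these promoters were the vomeronasal receptors, which detect pheromones in the nose. Vmn1r genes, receptors for small volatile signals, gave 39 of their 206 promoters (18.9%), and Vmn2r genes, receptors that bind peptide signals, gave 23 of 124 (18.5%), against 2.47% of all promoters. In Vmn1r130, Vmn1r132, Vmn1r135 and Vmn1r137 no word was unique, and each had a copy identical over 1500 bases between 483 and 1223 kb away. Vmn2r33, Vmn2r35 and Vmn2r36 had none either, and Vmn2r34 had 9.58%. Neither family was empty as a whole. The 142 Vmn1r promoters with at least 50% unique words held a median of 33 peaks and none was empty, and the 91 such Vmn2r promoters held a median of 32.

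Odorant receptors gave a different picture. Only 3 of 1106 Olfr promoters (0.271%) were empty, Olfr1506, Olfr1316 and Olfr247, below the 2.47% of all promoters. Their family had 1087 promoters with at least 50% unique words, which held a median of 35 peaks.

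The major urinary proteins, liver products that carry pheromones into urine, gave 7 of 21 promoters (33.3%), namely Mup1, Mup11, Mup12, Mup13, Mup14, Mup15 and Mup17. Their copies were less alike than those of the 528 promoters as a whole, with a median identity of 99.27%, against 99.93%. Mup15 had 0.827% unique words and Mup12 had 12.8%, none of the 7 had an identical copy, and the median unique share of the other 14 was 26.6%, with a median of 4 peaks. Among these 14, the 5 with at least 50% unique words held a median of 38.

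Defensins, antimicrobial peptides, gave 7 of 53 (13.2%), all of the alpha class, which is made by Paneth cells in the gut. Defa-rs7 had 5.17% unique words, Defa3 9.92%, Defa5 11.03% and Defa22 18.9%, and the closest copies of these 4 were 99.5% to 99.8% identical. Amylase genes gave 3 of 6, the pancreatic genes Amy2a3, Amy2a4 and Amy2a5, each with identical copies and 5 places per word. The Zscan4 cluster, which is active in early embryos, also gave 3 of 6, namely Zscan4b, Zscan4e and Zscan4-ps2, and here the median unique share was 21.5%.

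Chemokines of lymph nodes and skin gave 5 of 36 (13.9%), which were Ccl19, Ccl21a, Ccl21b, Ccl21c and Ccl27b. All had identical copies and no unique word. They shared their interval of chromosome 4 with Il11ra2, which encodes a copy of the interleukin 11 receptor. The other 31 chemokine promoters all had at least 50% unique words and held a median of 42 peaks.

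Histone genes gave 6 of 77 (7.79%), all in 1 run on chromosome 13. Hist1h2bq, Hist1h2ao, Hist1h2ap and Hist1h2br had an identical copy with 2 places per word, and Hist1h4m and Hist1h4n had one at 99.87% identity. The copies ran in opposite directions, 20.9 to 23.7 kb apart. Zinc finger genes gave 6 of 385 (1.56%), below the share of all promoters, by symbol. By sequence, 37 of the 512 genes with a translated protein encoded at least 3 copies of the C2H2 zinc finger motif. Among them were 25 on chromosome 2, in the interval of Gm14391. The share among all genes is not given here, so no excess can be read from this count.

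**Figure D4:**
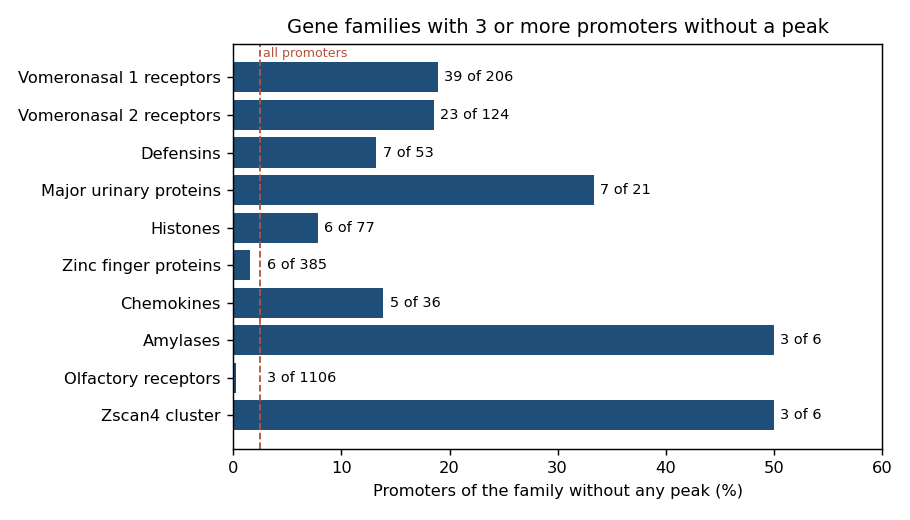
Share of the promoters of each gene family without any peak, in percent, for the 10 listed families with at least 3, with the counts beside the bars. The dashed line marks the 2.47% of all promoters, and zinc finger and olfactory receptor genes lie below it.

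Some of the genes are not members of large families. Cdkn2d, which encodes a cyclin-dependent kinase inhibitor (chr9:21095154-21096653), and its neighbour Kri1, a ribosome biogenesis gene, both had an identical copy on chromosome 9, at distances of 102741 and 102747 kb. Words of both had a median of 2 places. Cngb1, a channel subunit of rod photoreceptors (chr8:97807582-97809081), and Tepp, a gene of testis, prostate and placenta (chr8:97833466-97834965), both matched a single interval of chromosome 5, at chr5:143440676-143442175 and chr5:143414792-143416291. Tff1, which encodes a peptide of stomach mucus (chr17:31301499-31302998), matched chr5:143288735-143290234, in the same neighbourhood. All of these copies were 100% identical over 1500 bases and held no peak.

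Nid1, which encodes the basement membrane protein nidogen, is expressed in many tissues and had 15.3% unique words. Its single copy, 735 kb away on chromosome 13, was 99.27% identical. Fam177a and Srp54c shared a duplication of chromosome 12 with copies 75.1 kb away. Hsd3b4 (a steroid dehydrogenase gene), Smok3b (a sperm motility kinase gene) and Mug2 (a protease inhibitor gene) had identical copies at 53.5, 15.97 and 169 kb. The 4 annotated genes with the symbol Flg on chromosome 3, named for filaggrin, a protein of skin, had 12 or 13 places per word, with closest copies 1.51 to 6.05 kb away. Dynlt1c, Dynlt1e and Dynlt1f, dynein light chain genes, lay in a run of 8 on chromosome 17 in which every promoter had an identical copy.

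The base composition of the 528 promoters differed from that of the others. Their median G/C content was 42.9%, against 52.1%, and their median ratio of observed to expected CpG was 0.142, against 0.497. By 500-bp intervals with at least 55% G/C and a CpG ratio of at least 0.6, 61 (11.6%) were CpG-rich (HCP), against 55.7% of the others, and 365 (69.1%) were CpG-poor (LCP), with no interval at a ratio of 0.4, against 27.3%. The 61 CpG-rich ones were duplicated like the rest, with 18 in 1 group on chromosome 14 (Gm1973 the first), 7 in the Cwc22-like group on chromosome 2, 6 histone genes, and Cdkn2d and Kri1 among them.

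The sequence around these promoters was sparse in peaks too. Within 50 kb on either side, without the promoter itself, a median of 8.02 kb was unique, against 93.5 kb for the others. Per kb of unique sequence and library, 355 flanks with at least 1 kb of it held a median of 1.20 peaks (quartiles 0.570 and 2.73), against 3.52 (3.33 and 3.66) for the others. No peak at all lay within 50 kb of 113 of the 528 and of none of the others. Flanks with under 1 kb of unique sequence count here too, and some, as at Gm4631 and Gm10598, had 0 kb and could hold no such peak. Since 429 of the 528 stood next to another, flanks can also hold neighbours chosen as empty. Gaps of the assembly lay in 9.85% of these flanks, against 1.29% in a sample of 2089 others. Words unique only through 1 or 2 bases count as unique sequence here, and their part in the lower density was not tested.

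The peaks were also searched for longer intervals empty in both lines. None of 225432 windows of 10 kb with at least 50% unique sequence was empty. They held a median of 257 peaks, and the lowest held 1. None of 46631 windows of 50 kb fell below 25% of the median density in every library. At 50% of the median there were 10, of which 8 were on chromosome 7, and none held the TSS of a promoter without a peak. These 10 windows had 50.2% to 61.6% unique words, against the limit of 50% for entry. Cdkn2a, Cdkn2b and Mtap, neighbours on chromosome 4 that are deleted together in many tumors, had 39, 39 and 43 peaks and 100% unique words, with peaks of every mark in both lines. Host cells in the tissue can also give peaks there.

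One promoter had ample unique sequence and no peak. It belongs to Tgtp1, which encodes an interferon-inducible GTPase first known from T cells, on the minus strand of chromosome 11 (chr11:48807175-48808674). Of its words 92.7% were found once, and 56.7% remained unique at 2 mismatches. The 18420 other promoters with at least 90% unique words held 16 peaks or more, and the lowest were Vmn2r71 and Gm5321. In the class of 50% to 75% at 2 mismatches, the median was 32 peaks and the 5th percentile 23.

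The promoter of Tgtp1 closely resembled that of its neighbour Gm12185, on the same strand. The 300 bases upstream of each TSS are shown, 5′ to 3′ on the minus strand in mm9, with capitals for bases that do not pair with the same base of the other in an alignment.
Tgtp1, chr11:48807675-48807974: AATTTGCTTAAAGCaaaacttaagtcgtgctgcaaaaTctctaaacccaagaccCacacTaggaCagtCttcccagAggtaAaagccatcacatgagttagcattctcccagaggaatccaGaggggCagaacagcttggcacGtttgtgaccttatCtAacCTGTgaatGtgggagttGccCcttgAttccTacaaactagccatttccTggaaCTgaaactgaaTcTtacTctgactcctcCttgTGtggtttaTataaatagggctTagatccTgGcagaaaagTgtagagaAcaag
Gm12185, chr11:48805729-48806028: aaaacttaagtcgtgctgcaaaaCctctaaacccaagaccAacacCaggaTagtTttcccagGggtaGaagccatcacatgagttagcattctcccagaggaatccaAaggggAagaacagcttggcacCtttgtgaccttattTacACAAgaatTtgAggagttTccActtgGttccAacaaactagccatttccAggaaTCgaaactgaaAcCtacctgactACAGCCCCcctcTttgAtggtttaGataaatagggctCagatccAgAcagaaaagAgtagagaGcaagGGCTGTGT

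Of the 300 bases 250 were shared. Gm12185, with 64.2% unique words, was not empty but held 2 peaks, 1 of H3K4me3 in each line. Tgtp2, the nearest gene of the same kind on the far side (40.7% unique), held 14, of which 4 were H3K4me3 peaks in each line.

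**Figure D5:**
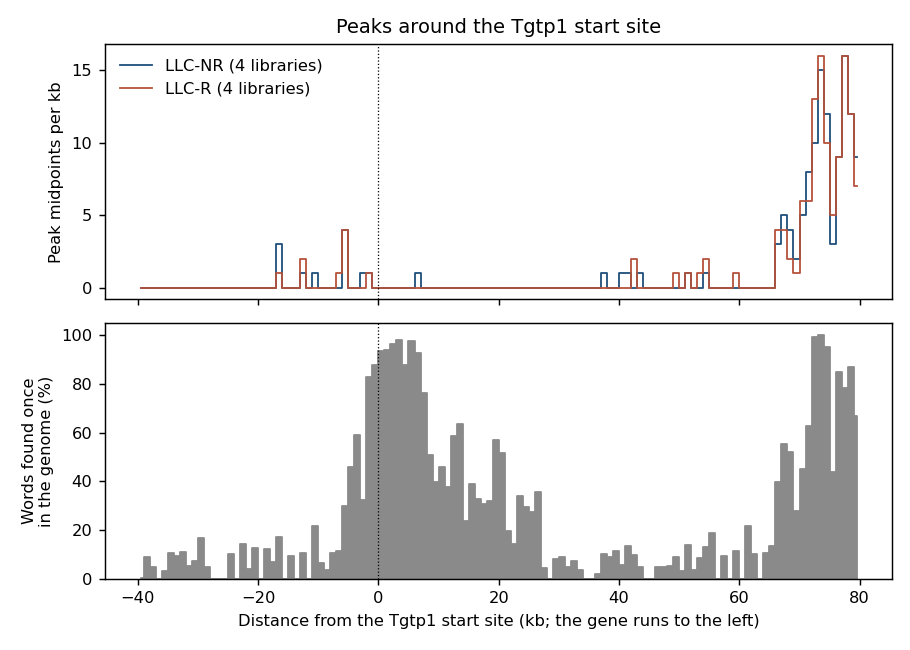
Upper panel, peak midpoints per kb around the TSS of Tgtp1, summed over the 4 libraries of LLC-NR (blue) and of LLC-R (red), against the distance in kb. Lower panel, percent of 50-base words found once in each kb. The 27 bins from 1 kb left of the TSS to 26 kb right of it hold 1 peak in all, although the unique share is above 80% next to the TSS.

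The blank interval was much longer than the promoter. From 48806665 to 48813879 on chromosome 11, 7.22 kb with 93.8% unique words (67.4% at 2 mismatches) held no peak midpoint in any library. It was followed, each after a single peak, by stretches of 31.2 kb with 29.4% and of 2.68 kb with 11.6% unique words. At 2 mismatches these 2 stretches had only 8.19% and 0% unique words among those sampled. The part of this in their lack of peaks was not tested, and read length is not known. Together these 41.1 kb held 16.3 kb of sequence unique by exact words and 2 peaks, 1 of H3K27me3 and 1 of H3K36me3 in LLC-NR. That is 0.0154 per unique kb and library. The bounds of the interval were set at peaks, so this low density follows from the choice and is not comparable with the median of 3.52 around other promoters. From 72 to 80 kb beyond the TSS, where 82.04% of words were unique, the mean was 2.72 peaks per kb and library. That density counts all bases, not unique ones alone. In LLC-R no peak lay in the 41.1 kb.

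The cause of the blank interval was not tested. The neighbours of Tgtp1 among the 528 were duplicated. 9930111J21Rik1 and 9930111J21Rik2 had 6.34% and 6.48% unique words and none at 2 mismatches.

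Between neighbouring peaks of the pooled libraries, 22586 intervals were 2 kb or longer, and 524 of the 528 promoters lay inside one. Each of the 528 was chosen as 1500 bases without a peak, so this count was largely fixed in advance. The median unique share of the 22586 intervals was 7.04%. With at least 75% unique words there were 6, of which 5 were on chromosome 11 and 1 held a promoter, that of Tgtp1. The other 4 of chromosome 11 were 2.02 to 3.42 kb long with 92.7% to 97.9% unique words and 72.5% to 92.3% at 2 mismatches. The 10 kb on either side of these 4 held 141 to 259 peaks, against a median of 257 in the 10 kb windows searched above. Totals over 10 kb do not show how near to the edges the peaks lay. The sixth, at 92.6 Mb of chromosome 4, was 3.42 kb long with 75.02% unique words, of which 22.1% remained at 2 mismatches.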

How the data were processed

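Per the labels and the study's methods, the authors aligned the reads of each library against mm9 (Bowtie 0.12.7, up to 2 mismatches), discarded reads with more than 1 match and ran GeneTrack on the rest. Read length and GeneTrack settings are not given in the sources used here. The deposited files hold only the start and end of peaks, all 147 bp wide, so no height, count of reads or control was available for use.

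Gene models came from GENCODE vM1 and sequence from NCBIM37, the assembly of mm9. Unique words of 50 bases (36 and 100 as alternatives) were found by hashing every word of both strands, with words up to 2 mismatches apart sampled every 50 bases. Copies were aligned with BLAST+ 2.17.0 (blastn, word size 40, at least 90% identity, e-value up to 1e-150) and kept at 1200 bases or more, and alignments that covered at least 750 bases of another such promoter joined the pair into a group. Counting and word searches were tested on simulated data and used Python 3.11.15 with NumPy 2.4.6 and Numba 0.67.0. Families were assigned by symbol.

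The promoters and gene lists were chosen with earlier results of these data known. Named genes are those with at least 50% unique words, ends of the 10 longest runs, up to 4 per family of 5 or more, up to 20 of no family, and those nearest the threshold. Genes outside this rule, such as Tff1, Dynlt1c and the genes of small families, were named after their values were seen. No test between lines was made.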

Additional observations from a re-analysis of the deposited data

How the results depend on the processing

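The number of promoters without a peak stayed within 1.5 times 528 in each alternative, from 407 with promoters of 2 kb upstream to 1 kb downstream to 630 with chromosomes X and Y, where 95 of 932 promoters (10.2%) of X were empty. Leaving out 1 library at a time gave 534 to 548. The mean unique share, 4.56% in the 528, was 3.04% with words of 36 bases, 10.4% with 100 bases and 0.278% at up to 2 mismatches. Promoters with at least 50% unique words numbered 1, but 12 with 100 bases, and 10 passed 25%. Read length therefore sets how many promoters count as repeated, and it is not known here. Identical copies numbered 231, and copies at 99% identity 470. No 10 kb window was empty, against 17 windows of 2 kb and 6 stretches between peaks, both chosen after seeing the data, as were the 2-mismatch words and the 99% limit. At 50% of the median density 10 windows of 50 kb were found, against 0 at 25%. The other 34 of 43 alternatives moved their values by less than 1.5 times. The lines were not compared with marks as pairs, since no result here comes from a test.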
